A study of Homo sapiens with 18 samples.

Results

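The gene expression response of Huh7 cells to 5-fluorouracil (5-FU) was described by comparing the 3 arrays of EpCAM+ Huh7 cells given 5-FU with the 3 arrays of control EpCAM+ Huh7 cells, which are 6 of the 18 arrays of the series. Huh7 is an established line of human hepatocellular carcinoma (HCC). The treated cells had received 1 µM 5-FU for 48 hours, the other cells are labelled only as control, and what the control cells received is not stated. In both groups cells carrying EpCAM, a surface protein used as a marker of tumor-initiating HCC cells, were isolated by fluorescence-activated cell sorting. The study examined how disulfiram (0.1 µM) acts on such cells, with 5-FU as the other agent. It ran the same design in a further line, Huh1. The 6 arrays were taken by their labels. The methods describe the triplicates as independent experiments, and both groups derive from 1 line.

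5-FU is a uracil analog used against many carcinomas. Its deoxyribonucleotide blocks thymidylate synthase, which makes the thymidylate needed for DNA synthesis. Its ribonucleotide is built into RNA, where it disturbs the processing of ribosomal RNA and the modification of uridines. Cells that meet it may stall in S phase, raise p53 target genes and alter the production of ribosomes.

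Each array carried RNA labelled with Cy3 on 42405 probes, of which 29894 were tested because every array of some group in the series showed them well above background. Values below are log2 signals minus the 75th percentile of their own array, called scaled log2 signals. A change is the 5-FU mean minus the control mean, and the brightest tested probe stands for each of 15852 genes. A gene was called when its adjusted p in limma was under 0.05. All 6 arrays were on 1 slide. Between 63.6% and 65.2% of probes were well above background on the control arrays and between 63.4% and 68.7% on the 5-FU arrays, and no spot was saturated. Correlations over probes were 0.9893 to 0.9941 within the groups and 0.9607 to 0.9664 between them. In bulk RNA of this kind, fewer cells of a type and less RNA per cell cannot be told apart.

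The choice of scale set the direction of many small changes. The mean log2 signal of the 7 spike-in probes, RNA of known amount added before labelling, was 13.32, 13.38 and 13.26 on the control arrays and 12.86, 12.95 and 12.996 on the 5-FU arrays. The 75th percentile of all probes moved the other way, from 10.13, 10.12 and 10.16 to 10.84, 10.63 and 10.73. The groups did not overlap in either quantity. Scaling to the spike-in probes therefore raised every change by 0.98, and a gene that fell by less than that on the main scale lay above 0 on the spike-in scale. Changes are reported relative to the bulk of the transcripts, and the spike-in value of each group is given beside its median. Among the genes named as fallen, RPL10A, RPL34, EEF2, EIF4EBP1, IARS1, MARS1, NARS2, HSP90B1, PDIA4, NDUFA10, ACSS2, ARG1, PPARA, BBC3 and LIG3 stayed below 0 on the spike-in scale but were no longer called there.

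**Figure D1:**
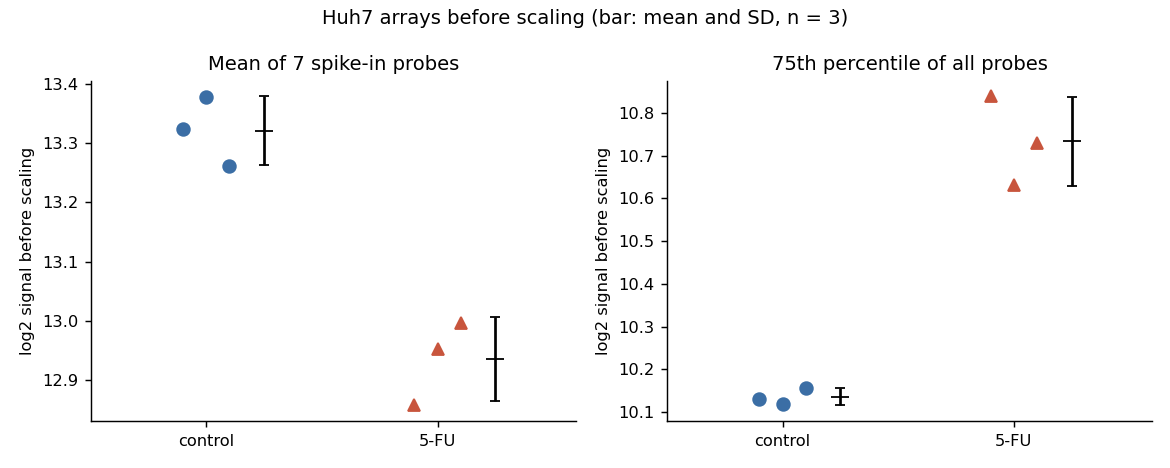
Mean log2 signal of 7 spike-in probes (left) and the 75th percentile of all probes (right) before scaling, for each of the 3 control and 3 5-FU arrays of Huh7, with the mean and SD of each group. The 5-FU arrays lie below the control arrays in the spike-in signal and above them in the 75th percentile; the axes do not start at 0.

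On the main scale the response was broad and even in both directions. Of all probes tested, 8173 (27.3%) were called higher after 5-FU and 8890 (29.7%) lower. Of all genes, 5156 (32.5%) were called higher and 4913 (31%) lower. Genes that were called and changed over 2-fold numbered 1528 higher (9.64%) and 1330 lower (8.39%). The 3 arrays of one group lay wholly above those of the other in 36.6% of genes for rises and 35.3% for falls. These shares are the background against which each gene group is read. The largest rises and falls, and most members named from lists, were picked among genes with separate groups. Their separation was fixed by that choice. On the spike-in scale 22918 probes were called higher and 1038 lower, and with the normexp background correction, which fits and removes background light, 7216 were called higher and 13367 lower. That correction also shrank the changes of dim probes, and its value is given where it decides a result.

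The largest rises were in genes of several kinds. LYPD1, a small membrane-bound protein of the Ly6 family, had scaled log2 signals of -4.29, -4.88 and -4.85 on the control arrays and 0.89, 1.05 and 0.77 on the 5-FU arrays. It rose by 5.57 ± 0.17 (SE, adjusted p = 2.25e-11), and its 3 probes gave changes between 3.04 and 5.71. CLTRN, a membrane protein that partners amino acid transporters, had -2.94, -2.88 and -3.01 on the control arrays and 2.99, 2.67 and 2.15 on the 5-FU arrays, a rise of 5.54 ± 0.45 (SE, adjusted p = 1.17e-07). NTS, the precursor of neurotensin, had -2.46, -2.50 and -2.36 on the control arrays and 2.47, 2.90 and 3.36 on the 5-FU arrays, a rise of 5.35 ± 0.54 (SE, adjusted p = 1.02e-06). All control arrays lay more than 4 log2 units below the 5-FU arrays in these 3 genes. GLYATL1, a glycine acyltransferase, rose by 4.94. ANKRD1, a stress-inducible ankyrin repeat protein, rose by 4.39, and ARHGDIB by 4.25. ANXA1, annexin A1, had -3.60, -3.75 and -3.91 on the control arrays and 0.40, 0.66 and -0.05 on the 5-FU arrays and rose by 4.09 ± 0.15 (SE, adjusted p = 1.17e-10).

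NR0B2 encodes SHP, the nuclear receptor through which bile acid signals repress bile acid synthesis. Its scaled log2 signals were -1.48, -1.61 and -1.44 on the control arrays and 1.76, 2.61 and 3.12 on the 5-FU arrays, a rise of 4.004 ± 0.36 (SE, adjusted p = 3.97e-07). The groups were far apart, although the 5-FU arrays spread over more than 1 log2 unit. SLC38A4, an amino acid transporter of the liver, rose by 3.92 and SSTR2, a somatostatin receptor, by 3.88. NPY, neuropeptide Y, rose by 3.81 and SCARA5, a ferritin receptor, by 3.71. COL16A1, a collagen, rose by 3.86 with its brightest probe and by 0.84 with its other one. KRT4, a keratin, rose by 3.72, with 5-FU arrays from -3.17 to -0.13. IL6, the cytokine that drives the hepatic acute phase, had -5.34, -5.43 and -4.93 on the control arrays and -1.43, -1.62 and -1.24 on the 5-FU arrays, a rise of 3.80 ± 0.22 (SE, adjusted p = 4.76e-09). With the normexp correction the changes were 2.22 for IL6, 2.34 for SLC38A4, 2.765 for COL16A1 and 2.12 for KRT4.

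The largest falls reached similar sizes. CCDC183, a coiled-coil protein, had -0.42, -0.53 and -0.65 on the control arrays and -4.77, -4.91 and -5.82 on the 5-FU arrays and fell by 4.63 ± 0.34 (SE, adjusted p = 4.08e-08). HSD17B8, which takes part in steroid and mitochondrial fatty acid metabolism, had 1.42, 1.43 and 1.47 on the control arrays and -3.17, -2.68 and -3.26 on the 5-FU arrays and fell by 4.48 ± 0.24 (SE, adjusted p = 2.56e-09). FUT1, a fucosyltransferase, had 1.12, 1.10 and 1.14 on the control arrays and -4.61, -2.65 and -2.36 on the 5-FU arrays and fell by 4.33 ± 0.43 (SE, adjusted p = 9.93e-07). The groups were clear of each other in all 3 genes, as the choice of genes required, with 1 low 5-FU array in FUT1. ANKRD37 fell by 3.77 and the lectin REG1A by 3.73. RGS11, a regulator of G protein signaling, fell by 3.72, the F-box protein FBXL16 by 3.60 and ULBP1, a ligand of the NKG2D receptor of lymphocytes, by 3.56. DMBT1 fell by 3.28, the proton-gated channel ASIC1 by 3.21, the fatty acid transporter SLC27A1 by 3.19 and the netrin receptor UNC5B by 3.19. The other SLC27A1 probe changed by -1.415. The troponin gene TNNI3 fell by 3.56 and LGI4 by 3.43, and with the normexp correction their changes were -2.43 and -2.72.

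**Figure D2:**
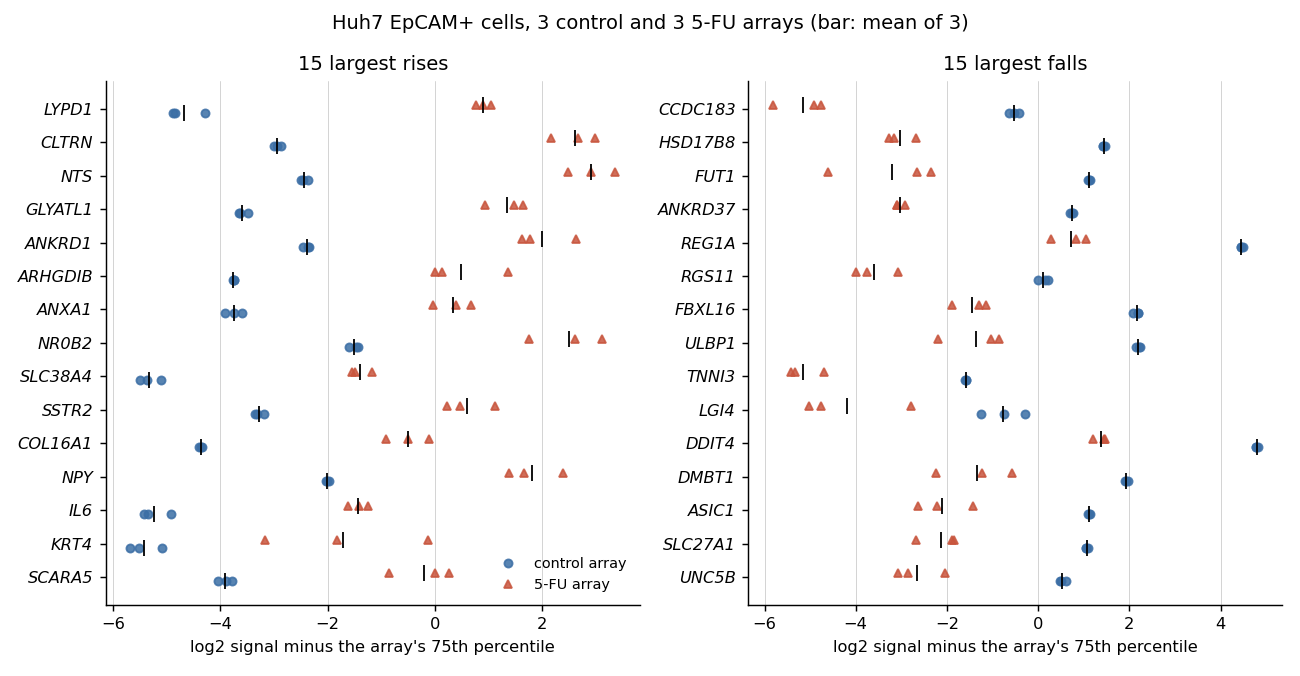
Scaled log2 signal (x axis) of the 15 genes with the largest rise (left) and the 15 with the largest fall (right) on the 3 control arrays (circles) and 3 5-FU arrays (triangles) of Huh7, with black bars at group means. No 5-FU array reaches a control array in any row, which the choice of these genes required. Positions of different genes are not comparable, since each row is a different probe.

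Some genes crossed the background. Of the genes tested, 240 were well above background on all 3 5-FU arrays and on no control array, 49 showed the reverse, and 14052 were above it on all 6 arrays. Detection was judged before scaling. The 75th percentile was then 10.63 to 10.84 on the 5-FU arrays and 10.12 to 10.16 on the control arrays. The counts of 240 and 49 are therefore not an even comparison of rises with falls. For such genes a bound on the main scale is given, to which the words at least refer. Signals under the lowest one among probes above background on their array were raised to it. Other signals below background were kept as they were, so a bound can lie close to the fitted fold. KCNJ16, a potassium channel subunit, was at least 117.8-fold higher after 5-FU, with -6.10, -6.29 and -8.07 on the control arrays and 0.66, 0.48 and 0.21 on the 5-FU arrays. ARL14, a small GTPase, was at least 46.8-fold higher and MMP7, the metalloproteinase matrilysin, at least 36.7-fold higher. The noncoding RNA FILNC1 was at least 30.02-fold and the protease HABP2 at least 30.01-fold higher, close to their fitted folds of 30.66 and 31.22. With the normexp correction the log2 changes were smaller, and the bounds do not hold there. They were 4.38 for KCNJ16, 3.13 for ARL14, 2.61 for MMP7, 2.34 for FILNC1 and 2.30 for HABP2. Among genes above background only in control cells, DIPK1C was at least 11.1-fold lower after 5-FU, PITPNM3 at least 8.61-fold and PSD2 at least 8.03-fold. The bounds of CDH23 (at least 15.7-fold lower) and FLRT1 (at least 7.92-fold lower) leaned on control array 1, where CDH23 stood at 0.52 against -4.12 and -4.20 and FLRT1 at -1.63 against -4.58 and -4.47. Without that array the changes of the probes were -2.41 for CDH23 and -2.09 for FLRT1. The other CDH23 probe changed by 1.00. With the normexp correction the changes were -1.57 for DIPK1C, -1.38 for PITPNM3, -1.49 for PSD2, -2.38 for CDH23 and -1.43 for FLRT1.

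The enzymes that 5-FU acts on or passes through changed in both directions. TYMS, thymidylate synthase itself, had 4.55, 4.52 and 4.57 on the control arrays and 5.16, 5.17 and 5.05 on the 5-FU arrays, a rise of 0.58 ± 0.07 (SE, adjusted p = 4.86e-06). TK1, which salvages thymidine, had 6.12, 6.05 and 6.11 on the control arrays and 6.95, 7.18 and 6.90 on the 5-FU arrays, a rise of 0.92 ± 0.07 (SE, adjusted p = 8.35e-08). RRM2, the inducible subunit of ribonucleotide reductase, had 1.68, 1.68 and 1.70 on the control arrays and 2.97, 2.95 and 2.63 on the 5-FU arrays, a rise of 1.16 ± 0.10 (SE, adjusted p = 1.45e-07). The groups of all 3 genes were separate. The choice of genes required this for RRM2 but not for TYMS and TK1, which were named whatever their values. UMPS, which converts 5-FU to its ribonucleotide, rose by 0.49. DHODH, which makes orotate in pyrimidine synthesis, had 1.92, 1.90 and 1.88 on the control arrays and 0.03, 0.01 and 0.17 on the 5-FU arrays and fell by 1.83 ± 0.07 (SE, adjusted p = 1.44e-10). DPYD, the enzyme that breaks 5-FU down, gave a change of -0.52 (adjusted p = 0.0841), and its other probe a change of 0.37. With only these 6 arrays in the fit the adjusted p of DPYD was 0.0321, with the normexp correction it was called lower (-0.46, adjusted p = 0.0113), and on the spike-in scale its change lay at 0.47. Of 32 tested genes of fluoropyrimidine metabolism, 13 were called higher and 8 lower, close to the shares over all genes (median change -0.02, spike-in scale 0.96).

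The effect on several of these genes differed from that in Huh1, which had its own controls. In Huh1 TYMS changed by -0.13 and TK1 by -0.02, and the difference between the lines was 0.70 (adjusted p = 6.67e-05) for TYMS and 0.94 (adjusted p = 9.07e-06) for TK1. Over all genes, 3754 (23.7%) had a change in Huh7 called above that in Huh1 and 3162 (19.9%) one called below it. In Huh1 itself 4098 of the 15852 genes were called higher after 5-FU and 4606 lower. Those 2 numbers are the background for the Huh1 counts of each list below.

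Targets of p53 moved less evenly. CDKN1A, the cyclin-dependent kinase inhibitor p21, had -2.42, -2.47 and -2.33 on the control arrays and -1.16, -0.93 and -1.32 on the 5-FU arrays, a rise of 1.27 ± 0.11 (SE, adjusted p = 1.94e-07). MDM2, the ubiquitin ligase that degrades p53, had -0.88, -0.74 and -0.83 on the control arrays and -0.09, 0.19 and 0.26 on the 5-FU arrays, a rise of 0.94 ± 0.14 (SE, adjusted p = 3.88e-05). Neither rise differed detectably from that in Huh1 (adjusted p = 0.241 and 0.137). The kinase PLK2 rose by 2.32 and TP53I3 by 1.63. BBC3, which encodes the death activator PUMA, had 2.97, 3.00 and 3.04 on the control arrays and 1.51, 2.06 and 1.84 on the 5-FU arrays and fell by 1.20 ± 0.12 (SE, adjusted p = 1.19e-06). In Huh1 it rose by 1.45, a difference of -2.65 (adjusted p = 1.41e-07). Of 32 tested p53 targets, 15 were called higher and 8 lower, with a median change of 0.30 in Huh7 (1.28 on the spike-in scale) and of 0.78 in Huh1, and 17 had a change called below that in Huh1. Of 36 apoptosis regulators, 18 were called higher and 9 lower (median 0.17, spike-in scale 1.15). BIK, a death activator of the BCL2 family, rose by 3.48 and BNIP3, a mitochondrial receptor of autophagy, fell by 1.65.

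Genes of S phase entry rose together. Of 42 tested genes of the G1/S transition and DNA replication, 36 were called higher and 1 lower, with a median change of 0.62 (1.60 on the spike-in scale). CCNE2, cyclin E2, had -1.56, -1.53 and -1.62 on the control arrays and 0.51, 0.76 and 0.69 on the 5-FU arrays, a rise of 2.23 ± 0.10 (SE, adjusted p = 3.98e-10). CDC6, which loads the replicative helicase at origins, had -2.50, -2.46 and -2.55 on the control arrays and -0.37, -0.40 and -0.52 on the 5-FU arrays, a rise of 2.08 ± 0.08 (SE, adjusted p = 1.23e-10). The groups were separate in both genes, as the choice of named members required. The phosphatase CDC25A rose by 1.22, the checkpoint mediator CLSPN by 1.18 and CDK2, the partner of cyclin E, by 0.91. The exception was POLA1, the catalytic subunit of DNA polymerase alpha, which fell by 0.76 and lay at 0.23 on the spike-in scale. In Huh1 the median of the list was 0.08, with 17 called higher and 10 lower, and 30 members had a change called above that in Huh1. CDKN1C, the inhibitor p57, rose by 0.56.

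Genes of mitosis did not follow those of S phase. Of 40 tested, 20 were called lower and 6 higher (median -0.19; the direction turned on the spike-in scale, with 0.79). PKMYT1, a kinase that holds back mitotic entry, rose by 1.04. KIF20A, a kinesin of cytokinesis, fell by 0.95 and lay at 0.03 on the spike-in scale. Genes of DNA repair were mixed, with 19 of 43 called higher and 10 lower (median 0.08, spike-in scale 1.06). The nuclease EXO1 rose by 1.15 and RBBP8 (CtIP), which starts the resection of DNA ends, by 1.22. The ligase LIG4 rose by 1.27, or 0.37 with the normexp correction, and LIG3 fell by 1.21.

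Histone transcripts fell. Of 37 tested histone genes, 32 were called lower, 22 of them over 2-fold, and 1 was called higher (median -1.12, spike-in scale -0.14). H1-3, a linker histone made in S phase, had 2.21, 2.20 and 2.26 on the control arrays and -0.14, -0.56 and -0.39 on the 5-FU arrays and fell by 2.59 ± 0.09 (SE, adjusted p = 6.19e-11). H1-4, another linker histone, fell by 1.79 and H1-10, a linker histone made outside S phase, by 1.78. The member called higher was H2AX, the variant phosphorylated at DNA breaks, which rose by 0.55. In Huh1 34 of the 37 were called lower, with a median of -0.60, and 21 members had a change called below that in Huh1. Histone genes are near copies of each other, so a probe may read more than 1 of them.

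**Figure D3:**
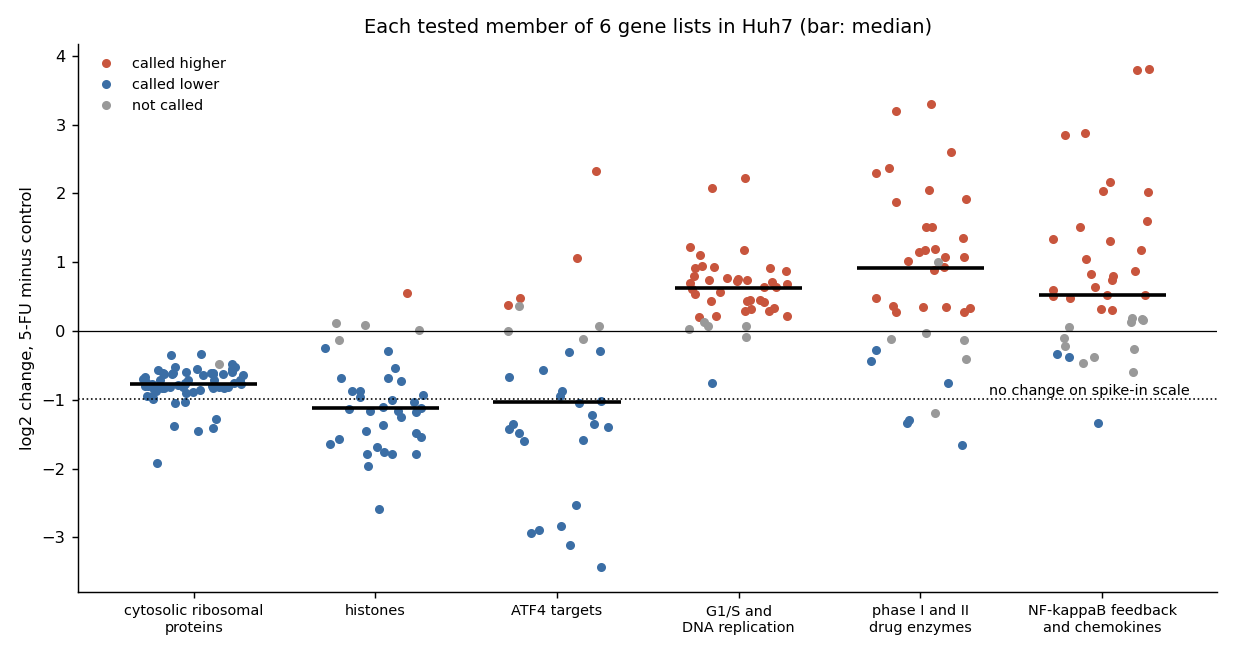
Change (5-FU minus control, log2) of each tested member of 6 gene lists in Huh7, with the list median as a bar, colored by whether the gene was called. On the main scale all 62 ribosomal protein genes lie below 0 and 40 of 42 G1/S and replication genes above it; the dotted line marks no change on the spike-in scale, above which the median of the ribosomal protein genes lies.

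Transcripts of cytosolic ribosomal proteins formed the most uniform of the 35 lists. All 62 members lay below 0, 61 were called lower and 7 fell over 2-fold, with a median of -0.77 on the main scale, which was -0.24 with quantile normalization and turned to 0.21 on the spike-in scale. RPL3, a core protein of the large subunit, had 8.06, 8.06 and 8.03 on the control arrays and 6.23, 6.16 and 6.02 on the 5-FU arrays and fell by 1.92 ± 0.08 (SE, adjusted p = 2.14e-10). RPL12 had 8.17, 8.16 and 8.13 on the control arrays and 6.85, 6.79 and 6.67 on the 5-FU arrays and fell by 1.38 ± 0.06 (SE, adjusted p = 5.36e-10). The 3 arrays of each group were within 0.25 log2 units of each other in these genes, far less than the gap. RPL22 fell by 1.42. The member not called was RPS12 (change -0.47), which was called with only the 6 arrays in the fit (adjusted p = 0.00507) and with the slide as a block (adjusted p = 0.0362). In the twentieth of genes with the brightest probes the median change was -0.20, or -0.14 without genes named as ribosomal proteins. In Huh1 all 62 were called lower with a median of -0.49, and 33 had a change called below that in Huh1. Ribosomal protein genes have many processed copies in the genome, which probes may not tell apart.

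Many transcripts of this kind begin with a terminal oligopyrimidine tract, through which their translation follows growth signals. In the RefSeq promoter sequences (build GRCh38.p14), 50 of the 62 genes had an entry. A run of at least 8 consecutive C or T bases lay within 20 bases of the annotated start in 41 of these 50 (82%). The share was 17.3% over all 27305 promoters and 16.6% over those of genes tested. RPL22, RPL10A and RPL34, which fell and have such a run, are shown as examples of this shared feature. The elongation factor gene EEF2, which also has one, is shown beside them. Other ribosomal protein genes with such a run may have fallen more. Each stretch runs 5′ to 3′ from 30 bases before the start to 20 bases after it, with the run in capitals:
RPL22: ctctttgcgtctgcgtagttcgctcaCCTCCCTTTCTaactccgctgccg
RPL10A: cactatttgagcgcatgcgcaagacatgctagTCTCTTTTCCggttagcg
RPL34: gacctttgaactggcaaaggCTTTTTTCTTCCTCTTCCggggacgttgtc
EEF2: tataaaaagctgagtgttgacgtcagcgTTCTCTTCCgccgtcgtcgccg

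The stretches lie at chr1:6199576-6199625 (minus strand), chr6:35468371-35468420 (plus strand), chr4:108620546-108620595 (plus strand) and chr19:3985444-3985493 (minus strand). RPL10A fell by 1.27 and RPL34 by 1.05, and EEF2, which moves the ribosome along the transcript, by 1.27. Such a run alone did not go with a large change. The 2063 tested genes that had one gave a median of -0.06 with 35.3% called lower, and the 10390 without gave 0.02 with 30.3%.

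The remaining translation genes fell less uniformly. Of 40 genes of initiation and elongation, 23 were called lower and 5 higher (median -0.29; the direction turned on the spike-in scale, with 0.69). EEF2K, the kinase that inhibits EEF2, had 2.01, 2.00 and 1.96 on the control arrays and -0.69, -0.29 and -0.34 on the 5-FU arrays and fell by 2.43 ± 0.12 (SE, adjusted p = 9.58e-10). EIF3F, an initiation factor subunit, fell by 1.33 and EIF4EBP1, a repressor of cap-dependent initiation, by 1.28. Genes of ribosomal RNA processing and ribosome assembly showed no common direction, with 17 of 51 called higher and 14 lower (median 0.05, spike-in scale 1.03) and none over 2-fold. The RNA exosome and its cofactors had 7 of 22 called higher and 8 lower (median 0.04, spike-in scale 1.02). TENT4B, which adds tails to RNA for decay, rose by 1.80, or 0.96 with the normexp correction. Enzymes that modify uridine and transfer RNA had 11 of 34 higher and 12 lower (median -0.04, turned to 0.94 on the spike-in scale). TRMT61A, a transfer RNA methyltransferase, rose by 1.52, or by 0.50 with its other probe. Host genes of small nucleolar RNAs and nuclear long noncoding RNAs had 5 of 23 higher and 8 lower (median -0.16, turned to 0.82 on the spike-in scale). SNHG5 fell by 1.84 in Huh7 and changed by -0.04 in Huh1, a difference of -1.80 (adjusted p = 1.04e-06), and EPB41L4A-AS1 fell by 1.42.

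Targets of ATF4 fell in Huh7, while the list was mixed in Huh1. ATF4 is the transcription factor of the amino acid and integrated stress responses, and it raises genes for amino acid import, synthesis and transfer RNA charging. Of 30 tested targets, 22 were called lower, 16 of them over 2-fold, and 4 higher (median -1.03, spike-in scale -0.04). DDIT4, an inhibitor of the growth kinase mTORC1, had 4.78, 4.82 and 4.79 on the control arrays and 1.20, 1.44 and 1.46 on the 5-FU arrays and fell by 3.43 ± 0.07 (SE, adjusted p = 1.38e-12). ASNS, asparagine synthetase, had 6.80, 6.79 and 6.89 on the control arrays and 3.44, 4.20 and 4.17 on the 5-FU arrays and fell by 2.89 ± 0.23 (SE, adjusted p = 8.22e-08). CHAC1, which degrades glutathione, had 2.89, 2.87 and 2.92 on the control arrays and -1.05, 0.32 and 0.07 on the 5-FU arrays and fell by 3.12 ± 0.27 (SE, adjusted p = 2.28e-07). The groups were separate in all 3, as the choice of named members required, and 5-FU array 1 was the lowest in each. SLC7A11, the cystine transporter, fell by 2.93, and SLC7A1, a transporter of arginine and lysine, by 1.42. FGF21, a hormone of the fasting liver, fell by 2.53 and was above background on 1 of the 3 5-FU arrays.

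The ATF4 transcript itself had 7.93, 7.89 and 7.88 on the control arrays and 6.91, 7.05 and 6.90 on the 5-FU arrays and fell by 0.95 ± 0.08 (SE, adjusted p = 1.81e-07), and it lay at 0.03 on the spike-in scale. DDIT3 (CHOP), a death-promoting partner in the same response, had 2.08, 2.09 and 2.12 on the control arrays and 1.97, 2.19 and 2.11 on the 5-FU arrays, and the groups overlapped (adjusted p = 0.97). In Huh1 DDIT3 rose by 2.21, a difference of -2.22 (adjusted p = 9.05e-07). Among the 4 targets called higher, the transcription factor ATF5 rose by 2.33 and PPP1R15A, which ends the response by restoring translation, by 1.06. In Huh1 11 of the 30 targets were called higher and 8 lower, with a median near 0 (-0.00), and 24 targets had a change in Huh7 called below that in Huh1, against 19.9% of all genes. ASNS changed by -0.18 in Huh1, a difference of -2.71 (adjusted p = 1.94e-05), and CHAC1 by 0.62, a difference of -3.74 (adjusted p = 5.56e-06).

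Aminoacyl-tRNA synthetases, which charge transfer RNAs, fell along with them. Of 37 tested, 26 were called lower and 4 higher (median -0.46; the direction turned on the spike-in scale, with 0.53). CARS1, for cysteine, fell by 1.58, GARS1, for glycine, by 1.46, YARS1, for tyrosine, by 1.32, NARS2, the mitochondrial enzyme for asparagine, by 1.25, MARS1, for methionine, by 1.15 and IARS1, for isoleucine, by 1.13. In Huh1 20 of the 37 were called lower and 4 higher (median -0.22). There CARS1, GARS1 and YARS1 changed by 0.09, -0.17 and -0.22, and NARS2 by -1.02.

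ATF4 binds a composite element with C/EBP factors, of which the letters TGATGNAA (N is any base) were searched on both strands of the RefSeq promoters, from 250 bases before the annotated start to 50 after it. The letters were in 5 of 24 ATF4 targets with a promoter entry (20.8%) and in 7 of 30 synthetases (23.3%). They were in 3.67% of all 27305 promoters and in 2.04% of the 12453 promoters of genes tested. Of the 5 targets, 4 were called lower and 1 higher, and of the 7 synthetases, 5 were called lower, 1 higher and 1 not. The promoters below are those of 3 targets and 3 synthetases that fell and held the letters, which are in capitals (on the reverse strand they read TTNCATCA). The stretches run 5′ to 3′ and end at most 15 bases after the start:
ASNS: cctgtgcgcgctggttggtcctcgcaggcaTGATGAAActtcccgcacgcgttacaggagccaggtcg
CHAC1: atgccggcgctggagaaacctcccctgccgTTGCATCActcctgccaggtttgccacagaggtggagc
FGF21: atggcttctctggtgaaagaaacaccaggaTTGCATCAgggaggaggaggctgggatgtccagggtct
CARS1: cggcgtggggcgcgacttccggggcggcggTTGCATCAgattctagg
IARS1: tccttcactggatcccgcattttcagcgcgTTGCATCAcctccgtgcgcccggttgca
MARS1: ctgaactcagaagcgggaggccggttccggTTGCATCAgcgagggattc

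The ASNS stretch is at chr7:97872439-97872506 (minus strand), CHAC1 at chr15:40953232-40953299 (plus strand), FGF21 at chr19:48755440-48755507 (plus strand), CARS1 at chr11:3057409-3057455 (minus strand), IARS1 at chr9:92293683-92293740 (minus strand) and MARS1 at chr12:57488034-57488082 (plus strand). The capitals start 68 bases before the start in ASNS, 209 in CHAC1 and 54 in FGF21. A match of letters does not show binding. Over all tested genes, the 254 with a match had a median change of -0.06 and the 12199 without one a median of 0.01. The share called lower was 31.1% in both, and the share called and over 2-fold lower was 13.4% with a match and 7.98% without. Matches were not confined to falls. They were in 3.38% of 1007 genes over 2-fold lower and in 2.67% of 1160 genes over 2-fold higher, against 2.04% of genes tested.

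Genes that handle amino acids and oxidants were lower. Of 44 genes of amino acid catabolism and the urea cycle, 25 were called lower and 6 higher (median -0.57; the direction turned on the spike-in scale, with 0.41). CTH, which makes cysteine from cystathionine, had 3.02, 3.05 and 3.08 on the control arrays and 0.40, 0.95 and 0.85 on the 5-FU arrays and fell by 2.32 ± 0.14 (SE, adjusted p = 6.35e-09). ASS1, the argininosuccinate synthase of the urea cycle, had 3.40, 3.36 and 3.35 on the control arrays and 0.92, 1.24 and 1.56 on the 5-FU arrays and fell by 2.13 ± 0.20 (SE, adjusted p = 5.36e-07). PCCA, a subunit of propionyl-CoA carboxylase, fell by 1.85 and ARG1, arginase of the liver, by 1.56. Of 42 targets of NRF2 and scavengers of reactive oxygen, 29 were called lower and 6 higher (median -0.52, turned to 0.46 on the spike-in scale). This list shares members with others, and SLC7A11 (-2.93) is counted here and among the ATF4 targets. The aldo-keto reductase AKR1C1 had 4.45, 4.40 and 4.48 on the control arrays and 2.10, 3.14 and 3.47 on the 5-FU arrays and fell by 1.54 ± 0.23 (SE, adjusted p = 4.65e-05). SOD3, the extracellular superoxide dismutase, rose by 1.71.

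Energy and lipid metabolism genes were also lower on the main scale. Of 67 subunits of the respiratory chain, 38 were called lower and 9 higher, 2 of them over 2-fold lower (median -0.25, turned to 0.73 on the spike-in scale and to 0.027 with quantile normalization), and NDUFA10 of complex I fell by 1.29. The mitochondrial ribosome differed from the cytosolic one, with 25 of 65 called higher and 22 lower (median -0.01, spike-in scale 0.97), and its subunit MRPS11 rose by 1.08. Among 34 sterol and fatty acid synthesis genes, 19 were called lower and 4 higher (median -0.29, turned to 0.69 on the spike-in scale). MSMO1, a sterol oxidase of cholesterol synthesis, had 4.29, 4.27 and 4.28 on the control arrays and 2.80, 2.85 and 2.74 on the 5-FU arrays and fell by 1.48 ± 0.05 (SE, adjusted p = 3.49e-11). In Huh1 MSMO1 rose by 0.26, a difference of -1.74 (adjusted p = 9.25e-10). ACSS2, which makes acetyl-CoA from acetate, fell by 1.21. Of 34 genes of fatty acid oxidation and ketogenesis, 17 were called lower and 8 higher (median -0.21, turned to 0.78 on the spike-in scale). The acyl-CoA dehydrogenase ACADS fell by 1.63 and the peroxisomal oxidase ACOX2 rose by 1.89.

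Lists of protein folding, turnover and splicing differed in direction from each other. Of 24 chaperones of the endoplasmic reticulum, 13 were called lower and 7 higher (median -0.35, turned to 0.63 on the spike-in scale), and HSP90B1 and PDIA4, which fold secreted proteins, fell by 1.02 and 1.01. Of 20 heat shock genes, 12 were called higher and 7 lower (median 0.27, spike-in scale 1.25), and the small heat shock protein HSPB8 rose by 3.54. Of 33 proteasome genes, 8 were called higher and 13 lower, none over 2-fold (median -0.09, turned to 0.90 on the spike-in scale). Of 48 splicing factors, 8 were called higher and 19 lower (median -0.10, turned to 0.89 on the spike-in scale and to 0.059 with quantile normalization), and HNRNPA1, an RNA-binding splicing repressor, fell by 1.46.

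Secreted liver proteins were more often called higher than lower, the reverse of amino acid catabolism. Of 49 secreted liver proteins, 30 were called higher, 16 of them over 2-fold, and 10 lower (median 0.69, spike-in scale 1.68). F11, a coagulation factor, had -0.19, -0.33 and -0.23 on the control arrays and 2.13, 2.18 and 2.58 on the 5-FU arrays, a rise of 2.54 ± 0.16 (SE, adjusted p = 1.25e-08). HPX, the heme carrier hemopexin, had -2.73, -2.77 and -2.65 on the control arrays and 0.29, -0.02 and -0.05 on the 5-FU arrays, a rise of 2.79 ± 0.23 (SE, adjusted p = 1.23e-07), and HRG, histidine-rich glycoprotein, rose by 2.80. All of these lay higher on every 5-FU array, as the choice of named members required. In Huh1 14 of the 49 were called higher and 9 lower, and 21 had a change in Huh7 called above that in Huh1.

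Drug-metabolizing enzymes had the highest median of the 35 lists on the main scale. Of 38 tested phase I and II enzymes, 26 were called higher, 17 over 2-fold, and 6 lower, with a median of 0.91 (1.90 on the spike-in scale, 0.40 with the normexp correction and 0.49 over members above background on all 6 arrays). CYP3A5 had -0.68, -0.85 and -0.90 on the control arrays and 1.88, 1.85 and 1.65 on the 5-FU arrays, a rise of 2.60 ± 0.17 (SE, adjusted p = 2.01e-08). CYP3A7, the fetal member of the same cytochrome family, had -0.36, -0.47 and -0.52 on the control arrays and 1.97, 1.93 and 1.86 on the 5-FU arrays, a rise of 2.37 ± 0.17 (SE, adjusted p = 3.3e-08). The family is closely related in sequence, and its probes may read more than 1 member. NR1I2, the pregnane X receptor that induces CYP3A genes, had -2.92, -2.91 and -2.81 on the control arrays and -0.81, -0.46 and -0.71 on the 5-FU arrays, a rise of 2.22 ± 0.13 (SE, adjusted p = 6.97e-09). UGT2B15, a glucuronosyltransferase, was at least 8.42-fold and CYP2C8 at least 4.13-fold higher, both from below background in control cells (fitted changes of 3.31 and 3.20, or 1.01 and 0.48 with normexp). In Huh1 13 of the 38 enzymes were called higher and 11 lower (median 0.19), and 19 had a change in Huh7 called above that in Huh1.

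Bile acid genes were mixed beside NR0B2. Of 23 tested, 11 were called higher, 8 over 2-fold, and 5 lower (median 0.14, spike-in scale 1.13, and 0.445 without 5-FU array 1). With the normexp correction the median was 0.07. Members above background only after 5-FU could pass the filter through those arrays, which favours rises. SLC51B, a subunit of the bile acid exporter of the basolateral membrane, had 1.79, 1.75 and 1.79 on the control arrays and 3.96, 4.52 and 4.30 on the 5-FU arrays, a rise of 2.48 ± 0.19 (SE, adjusted p = 7.1e-08). BAAT, which conjugates bile acids to glycine or taurine, was at least 4.14-fold higher from below background. With the normexp correction its log2 change was 0.53, and the bound does not hold there. AKR1D1, a reductase of bile acid synthesis, rose by 3.82, or 1.08 with the normexp correction, and was above background on 1 control array. Liver transcription factors showed no common direction (11 of 31 higher, 10 lower, median -0.00, spike-in scale 0.98), and PPARA, the receptor that drives fatty acid oxidation, fell by 1.31. The other PPARA probe changed by -0.80.

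Inflammatory and immediate early genes were more often called higher than lower in both lines. Of 39 genes of NF-kappaB feedback and chemokines, 25 were called higher, 13 over 2-fold, and 3 lower (median 0.53 in Huh7, 1.51 on the spike-in scale and 0.56 in Huh1, where 23 were called higher and 3 lower). CXCL8, interleukin 8, had -2.65, -2.73 and -2.59 on the control arrays and 0.33, -0.01 and 0.25 on the 5-FU arrays, a rise of 2.85 ± 0.36 (SE, adjusted p = 1.06e-05), and in Huh1 it rose by 3.03. CXCL6, a related chemokine for neutrophils, rose by 2.88. CCL2, a chemokine for monocytes, was at least 7.66-fold higher from below background, with 5-FU arrays at -2.22, -4.52 and -4.82. With the normexp correction its log2 change was 1.01, and the bound does not hold there. In Huh1 CCL2 changed by -0.68, a difference of 4.48 (adjusted p = 0.000103), and IL6 by 0.26, a difference of 3.54 (adjusted p = 1.62e-06). Of 33 AP-1 and immediate early genes, 22 were called higher, 13 over 2-fold (median 0.76, 1.75 on the spike-in scale, 0.98 in Huh1, where 26 were called higher and 1 lower), and MYC alone was called lower. The growth factors AREG and HBEGF, ligands of the epidermal growth factor receptor, rose by 2.80 and 2.91, the latter by 1.70 with the normexp correction. PHLDA1 rose by 2.32 and the matrix protein CCN1 by 2.30.

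Interferon-stimulated and RNA-sensing genes had 23 of 45 called higher, 11 over 2-fold, and 4 lower (median 0.34, spike-in scale 1.32). In Huh1 24 were called higher and 7 lower, with a median of 0.38. GBP2, a guanylate-binding protein, had -1.58, -1.61 and -1.58 on the control arrays and 0.43, 0.70 and 0.86 on the 5-FU arrays, a rise of 2.25 ± 0.11 (SE, adjusted p = 1.08e-09), and the related GBP1 rose by 2.56. In Huh1 GBP2 changed by 0.13, a difference of 2.12 (adjusted p = 3.82e-07). The chemokine CXCL10 rose by 2.25 and IFI6 by 2.25. Metalloproteinases and their inhibitors had 13 of 26 called higher and 8 lower (median 0.34, spike-in scale 1.33, 0.065 with the normexp correction and 0.14 over members above background on all 6 arrays). MMP10 was at least 11.3-fold higher from below background. Its log2 change was 1.55 with normexp, where the bound does not hold. MMP24 rose by 3.69 (2.07 with normexp) and TIMP1, the inhibitor, by 3.71 (1.78 with normexp). Wnt targets and feedback genes had 10 of 32 called each way (median -0.01, spike-in scale 0.98). The receptor FZD5 rose by 1.94, and the ligand WNT5A and the inhibitor APCDD1 fell by 2.16 and 2.15.

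Markers of other cell types were low but not flat across the groups, and their part in these results was not tested. Of 9 immune markers on the array, 6 were above background on all control arrays and 6 on all 5-FU arrays, and the summed linear scaled signal was 2.01 to 2.04 in control and 2.96 to 4.58 after 5-FU. Of 8 fibroblast and stellate cell markers, COL1A1 and LUM were above background in control cells and PDGFRB and DCN as well after 5-FU, and their summed signal was 0.523 to 0.560 in control and 3.04 to 3.21 after 5-FU. THY1 was below background on all 6 arrays. LUM, a matrix proteoglycan, rose by 2.72, DCN was at least 9.15-fold and PDGFRB at least 3.27-fold higher (with the normexp correction PDGFRB changed by 0.13, adjusted p = 0.260), and COL1A1 changed by 0.56 (adjusted p = 0.498). With only the 6 arrays in the fit the adjusted p of COL1A1 was 0.00152. Of 6 endothelial markers, 3 and 2 were above background in the groups, KDR, TEK and ERG were not on any array, and the summed signal was 0.263 to 0.284 and 0.430 to 0.498. All 11 hepatocyte and all 7 epithelial markers were above background on all 6 arrays.

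Markers of tumor-initiating and progenitor cells gave no common direction. Of 32 tested, 11 were called higher and 7 lower (median 0.03, spike-in scale 1.02). EPCAM, by which the cells were sorted, had 5.47, 5.47 and 5.53 on the control arrays and 6.15, 5.84 and 5.23 on the 5-FU arrays, a change of 0.25 (adjusted p = 0.239), and its groups overlapped. It was called higher (0.50) without 5-FU array 3, with quantile normalization (0.58) and on the spike-in scale (1.23). PROM1 (CD133) had 1.72, 1.71 and 1.69 on the control arrays and 2.01, 1.61 and 1.81 on the 5-FU arrays, a change of 0.10 (adjusted p = 0.61), called on the spike-in scale (1.09). ANPEP (CD13) and CDH1 (E-cadherin) changed by -0.08 and -0.05, with overlapping groups.

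GPC3, an oncofetal proteoglycan of HCC, had 5.60, 5.59 and 5.62 on the control arrays and 5.32, 5.23 and 5.38 on the 5-FU arrays, a change of -0.29 (adjusted p = 0.0992), and it was called with only the 6 arrays in the fit (adjusted p = 0.0113). AFP, alpha-fetoprotein, had 8.19, 8.27 and 8.14 on the control arrays and 7.74, 7.87 and 7.79 on the 5-FU arrays and fell by 0.40 ± 0.15 (SE, adjusted p = 0.0326). The AFP call was lost without 5-FU array 1 or 3 (adjusted p = 0.0851 and 0.0682) and without control array 1 or 2 (adjusted p = 0.0662 and 0.0910). It was at the threshold with no filter on dim probes (adjusted p = 0.05002), and the selection rule of the study did not pick AFP. The change lay above 0 with quantile normalization (0.13) and on the spike-in scale (0.59). In Huh1 AFP rose by 0.90, a difference of -1.29 (adjusted p = 0.000265). MYC, the growth-promoting transcription factor, had 4.36, 4.41 and 4.42 on the control arrays and 2.68, 2.12 and 2.64 on the 5-FU arrays and fell by 1.91 ± 0.13 (SE, adjusted p = 1.9e-08). CD47, a surface signal against phagocytosis, rose by 1.11 and LGR5, a receptor of Wnt-dependent stem cells, by 1.502, or 0.64 with the normexp correction.

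**Figure D4:**
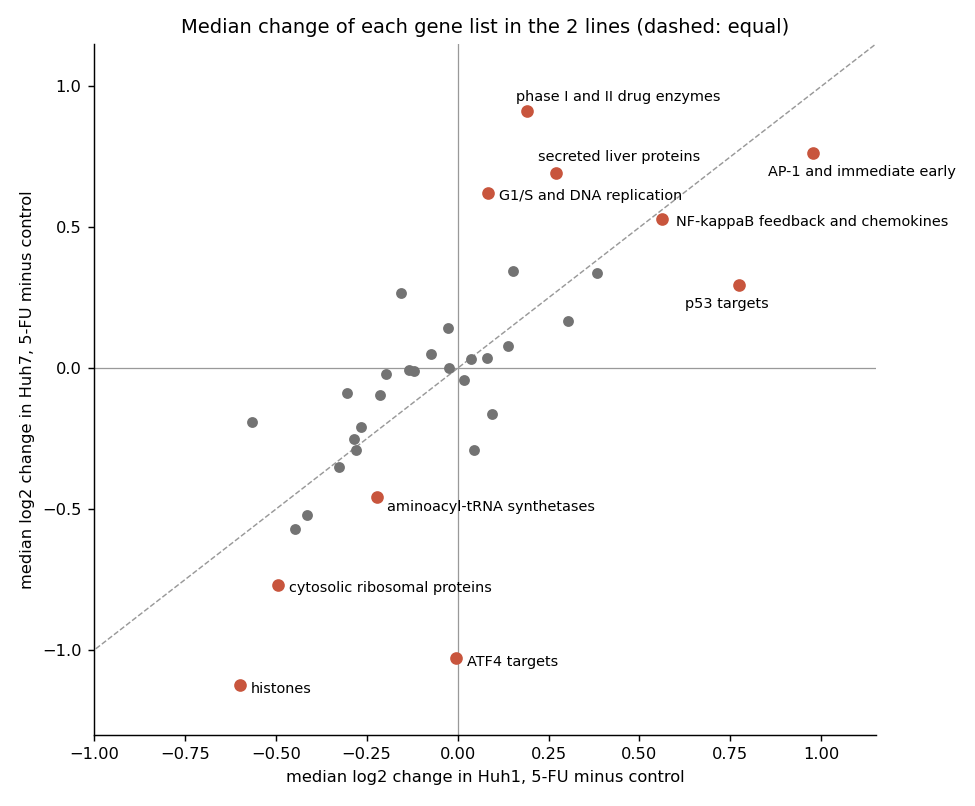
Median log2 change of each of 35 gene lists after 5-FU in Huh7 (y axis) against Huh1 (x axis), with each line compared with its own controls on the main scale and the dashed line marking equal medians. ATF4 targets lie at -1.03 in Huh7 and near 0 in Huh1, G1/S genes at 0.62 and 0.08, and p53 targets at 0.30 and 0.78; on the spike-in scale every Huh7 median is higher by 0.98, which brings that of the ribosomal proteins above 0. The Huh1 medians on that scale are not drawn.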

How the data were processed

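RNA of EpCAM+ cells was labelled with Cy3 and hybridized to Agilent SurePrint G3 Human GE 8x60K arrays, 1 colour and 1 sample per array. The authors deposited the scanner output of Agilent Feature Extraction 10.7.1.1, the version the files and the submitters' processing notes give, in which each spot has a processed signal intensity after background subtraction on a linear scale. The deposited table of normalized intensities was put on the log2 scale and compared with the scanner files. After the median difference of each array was removed, 100% of its values lay within 0.05 of the scaling used here. Groups were taken from the sample labels.

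Of 42405 probes, 78 with outlier flags or no usable signal were left out. The processed intensity was put on the log2 scale and the 75th percentile of each array was subtracted. Probes that every array of some group (of 6) showed well above background were tested with limma 3.58.1 (lmFit and eBayes, R 4.3.3) over all 18 arrays with group as the only term, and p-values were adjusted by Benjamini-Hochberg over all 29894 probes, threshold 0.05. The change in Huh1 was taken against that line's own controls, and the difference between the lines was a contrast in the same fit. The test was checked on simulated data with known changes. Probes were named through their RefSeq accession, which gave 25736 named probes of 19720 genes, and 3 older symbols were updated.

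Members and gene lists were chosen with earlier results of these data known. Genes named were the 15 largest rises and falls among called genes with separate groups and all 6 arrays above background, the 5 largest bounds each way, up to 4 called members of each list with the largest change and separate groups, a fixed set (TYMS, TK1, DPYD, UMPS, CDKN1A, MDM2, EPCAM, PROM1, ANPEP, CDH1, AFP, GPC3, CDK2, CDKN1C and NR0B2), and members named to say what a list holds. Some genes under this rule are not reported here. Lists were counted, with no test of a list, and some genes, such as SLC7A11 and MYC, are in more than 1 list. Alternatives were scaling to the median, to spike-in probes or by quantiles, the normexp correction (offset 50, on the median spot signal), the authors' table, other filters on dim probes, only the 6 arrays, the slide or the replicate number as a block, the study's own selection rule, the mean over probes, and leaving out each array. Promoter letters were read from RefSeq. The SE and p-values rest on 1 spread per probe, pooled over the 3 arrays of each of the 6 groups, the Huh1 and disulfiram groups included. The spread of the Huh7 arrays alone can differ from it. FUT1, for example, had an SD of 0.022 on the control arrays and 1.228 on the 5-FU arrays. Precision is limited by 3 arrays per group. Processing tools were Python 3.11.15 with pandas 2.3.3 and matplotlib 3.10.9.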

Additional observations from a re-analysis of the deposited data

Results flagged for a closer look

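Of the 40 genes with the largest changes or the largest bounds, 36 had a change after 5-FU in Huh7 that differed from the change in Huh1 by limma's test of the difference itself, with each line against its own controls. The test compares 3 arrays per group, and the genes were picked for the size of their change in Huh7, which favours a difference in that direction. The differences are given as the log2 change in Huh7 minus that in Huh1. For genes above background on all 6 Huh7 arrays that rose, they were 5.71 for LYPD1, 4.78 for CLTRN, 3.42 for NTS, 4.11 for GLYATL1, 2.48 for ANKRD1, 4.08 for ARHGDIB, 4.24 for ANXA1, 3.64 for SLC38A4, 2.84 for COL16A1, 2.85 for NPY, 3.54 for IL6, 4.06 for KRT4 and 2.96 for SCARA5. For those that fell, they were -1.64 for HSD17B8, -4.87 for FUT1, -3.55 for ANKRD37, -3.58 for REG1A, -4.24 for RGS11, -4.80 for FBXL16, -5.17 for ULBP1, -3.36 for TNNI3, -2.05 for LGI4, -3.02 for DDIT4, -3.08 for DMBT1, -2.09 for ASIC1, -1.85 for SLC27A1 and -3.74 for UNC5B. Genes that crossed the background depend on signals near it, and their fitted differences are not bounds. They were 6.99 for KCNJ16, 3.26 for ARL14, 4.19 for MMP7, 5.66 for FILNC1 and 4.68 for HABP2 among genes above it after 5-FU, and -3.00 for DIPK1C, -2.55 for PITPNM3, -3.30 for PSD2 and -3.12 for FLRT1 among genes above it in control cells. The 4 genes without a called difference were NR0B2, SSTR2, CCDC183 and CDH23. No groups of 4 or more arrays were present, so single arrays were not tested as outliers.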

How the results depend on the processing

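Scaling to the spike-in probes moved every count: 22918 probes were called higher and 1038 lower, 12591 genes higher and 594 lower, 7658 genes over 2-fold higher and 206 over 2-fold lower, and 4202 genes differed between Huh7 and Huh1. It also turned medians from below 0 to 0.63 for ER chaperones, 0.46 for NRF2 targets, 0.94 for RNA modification, 0.42 for amino acid catabolism, 0.53 for synthetases, 0.22 for cytosolic ribosomal proteins, 0.78 for fatty acid oxidation, 0.79 for mitosis, 0.90 for the proteasome, 0.73 for the respiratory chain, 0.82 for snoRNA hosts, 0.89 for splicing factors, 0.69 for sterol synthesis and 0.70 for translation factors. Changes turned likewise to 0.59 for AFP, 0.91 for ANPEP, 0.034 for ATF4, 0.94 for CDH1, 0.98 for DDIT3, 0.47 for DPYD, 0.69 for GPC3, 0.034 for KIF20A, 0.23 for POLA1 and 0.51 for RPS12. With quantile normalization AFP lay at 0.13 and GPC3 at 0.011, and 13 of 35 list medians moved by more than the spread between arrays. Among them the respiratory chain turned to 0.027 and splicing factors to 0.059, fluoropyrimidine metabolism (0.07), the mitochondrial ribosome (0.022) and liver transcription factors (0.104) moved from just below 0 to above it, cytosolic ribosomal proteins went to -0.239, translation factors to -0.14, NRF2 targets to -0.308, the proteasome to -0.046 and DNA repair to 0.19. With the mean over probes ER chaperones went to -0.204, DNA repair to 0.177, apoptosis regulators to 0.259 and liver transcription factors to 0.117. With the normexp correction 878 genes were over 2-fold higher, 13367 probes were called lower and DDIT3 lay at 0.014, and with median scaling DDIT3 lay at 0.024. The remaining counts stayed within 1.5 times under the other alternatives.

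Leaving out 1 array at a time gave 7445 to 7886 probes higher and 8058 to 8491 lower, 4720 to 5023 genes higher and 4520 to 4772 lower, 1500 to 1507 over 2-fold higher and 1200 to 1389 over 2-fold lower, and 6142 to 6946 genes that differed between the lines. The change of ANPEP ran from -0.203 without 5-FU array 2 to 0.122 without 5-FU array 1, that of CDH1 from -0.294 without 5-FU array 1 to 0.177 without 5-FU array 3, and that of DDIT3 from -0.058 without 5-FU array 2 to 0.054 without 5-FU array 1. Whether arrays with the same number came from the same experiment is not stated. Their deviations correlated at 0.008, -0.060 and -0.005, so no shared effect was seen, but such values cannot settle the pairing. With the replicate block 7847 probes were called higher and 8496 lower, 4969 genes higher and 4710 lower, 1523 over 2-fold higher and 1323 over 2-fold lower, and 6307 differed between the lines. Of 157 genes named, 148 were called and 10 had a change that turned in direction under some alternative. With 3 arrays per group on 1 slide and no stated control treatment, array precision limits small changes, and dim probes have changes that depend on the background correction. The causes of these shifts were not tested.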
